A study of Rattus norvegicus with 24 samples.

Results

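Cholesterol and fatty acid synthesis was followed through 31 genes, taken by gene symbol from the rat array, out of 20292 genes tested. They comprise 14 enzymes of sterol synthesis, the sterol carrier gene Stard4, 5 regulators (Srebf1, Srebf2, Scap, Insig1 and Insig2) and 11 enzymes of fatty acid synthesis and desaturation. The array carries 36 probes for them, and the probe with the highest mean was used for the 5 genes with more than 1. Every one of the 31 probes used was well above background on all 24 arrays.

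The samples were thyroid glands of RccHan Wistar rat pups, each run on 1 Agilent array with a single dye, with 4 arrays in each of 6 groups. The exposed groups were acrylamide females at night, acrylamide males at night and acrylamide females in the morning. A daily dose of 3 mg acrylamide per kg of body weight in the drinking water was given to the dams starting on gestational day 6, and then to the offspring until day 35 ± 3 after birth. Each exposed group had a control group of its sex and hour that drank tap water. Glands were taken at 10 PM (night) or 10 AM (morning), and the labels tie no replicate number to an animal or litter, so the p-values rest on sample-to-sample spread, which may be technical. All groups share strain and housing, and the labels record no step that removed neighbouring tissue. The study asked which transcripts go with hormonal change under a low chronic dose.

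Cells make cholesterol from acetyl-CoA through mevalonate, farnesyl diphosphate, squalene and lanosterol, and make palmitate from the same acetyl-CoA through malonyl-CoA. The transcription factors SREBP-1 (gene Srebf1) and SREBP-2 (Srebf2) drive the genes of both routes. SCAP carries them out of the endoplasmic reticulum when sterols are low, and INSIG proteins hold them back when sterols are high. Fat tissue is a strong site of fatty acid synthesis, and a dissected thyroid gland borders on fat and muscle.

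Levels are log2 processed signals relative to each array's 75th percentile, so 0 stands for that percentile and a difference of 1 is a doubling of signal. A gene was called when its limma p, adjusted over all genes tested by the Benjamini-Hochberg method, was under 0.05. The share of spots well above background was 71.5% to 82.3% over the arrays. Thyroid follicular markers (13 of 13 listed genes tested, led by Tg, thyroglobulin) averaged between 1.22 and 2.81 on 23 arrays and -3.37 on replicate 1 of the acrylamide females in the morning, so that array goes against its tissue label. Skeletal muscle markers, led by the myosin and troponin genes Mylpf and Tnnc2, averaged 1.90 on replicate 2 of the acrylamide males at night and between 3.85 and 7.92 on the other arrays. Most member values that 1 of these 2 arrays moves strongly are also given without it. Beyond that array, tissue markers also moved on replicates 2 and 3 of the acrylamide females in the morning. Thyroid follicular means were -3.37, 1.44, 1.22 and 1.93 against 2.13, 2.36, 2.28 and 1.91 in controls, so replicate 4 lay within the control range. With replicate 1 included, 13 of 13 markers had a lower mean (median -1.92 log2, 2 called). The median without it was not computed. Oesophageal epithelium markers (9 tested) averaged 0.76, -1.69, 1.55 and -3.59 against -3.20, -2.22, -3.04 and -3.37 in those controls. Their part in the morning values was not tested. In a bulk sample, fewer cells of a type and less RNA per cell cannot be told apart.

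No member was called with acrylamide in any stratum. In females at night 0 of 31 members passed, where 0% of all genes did, and 0 members had an unadjusted p under 0.05 against 380 of all genes. Males at night likewise gave 0 of 31 members called against 0% of all genes, with 3 members (Mvk, Ebp and Srebf1) and 2765 genes at an unadjusted p under 0.05. In females in the morning 0 of 31 members were called, where 2.10% of all genes were, and 7 members and 4848 genes had an unadjusted p under 0.05. The median difference over the 31 members was -0.01, 0.04 and -0.05 log2 in these 3 strata, beside 0.02, 0.00 and -0.11 over all genes tested. At night the acrylamide arrays lie in another row of each slide than the controls, so treatment and array row cannot be told apart there.

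**Figure D1:**
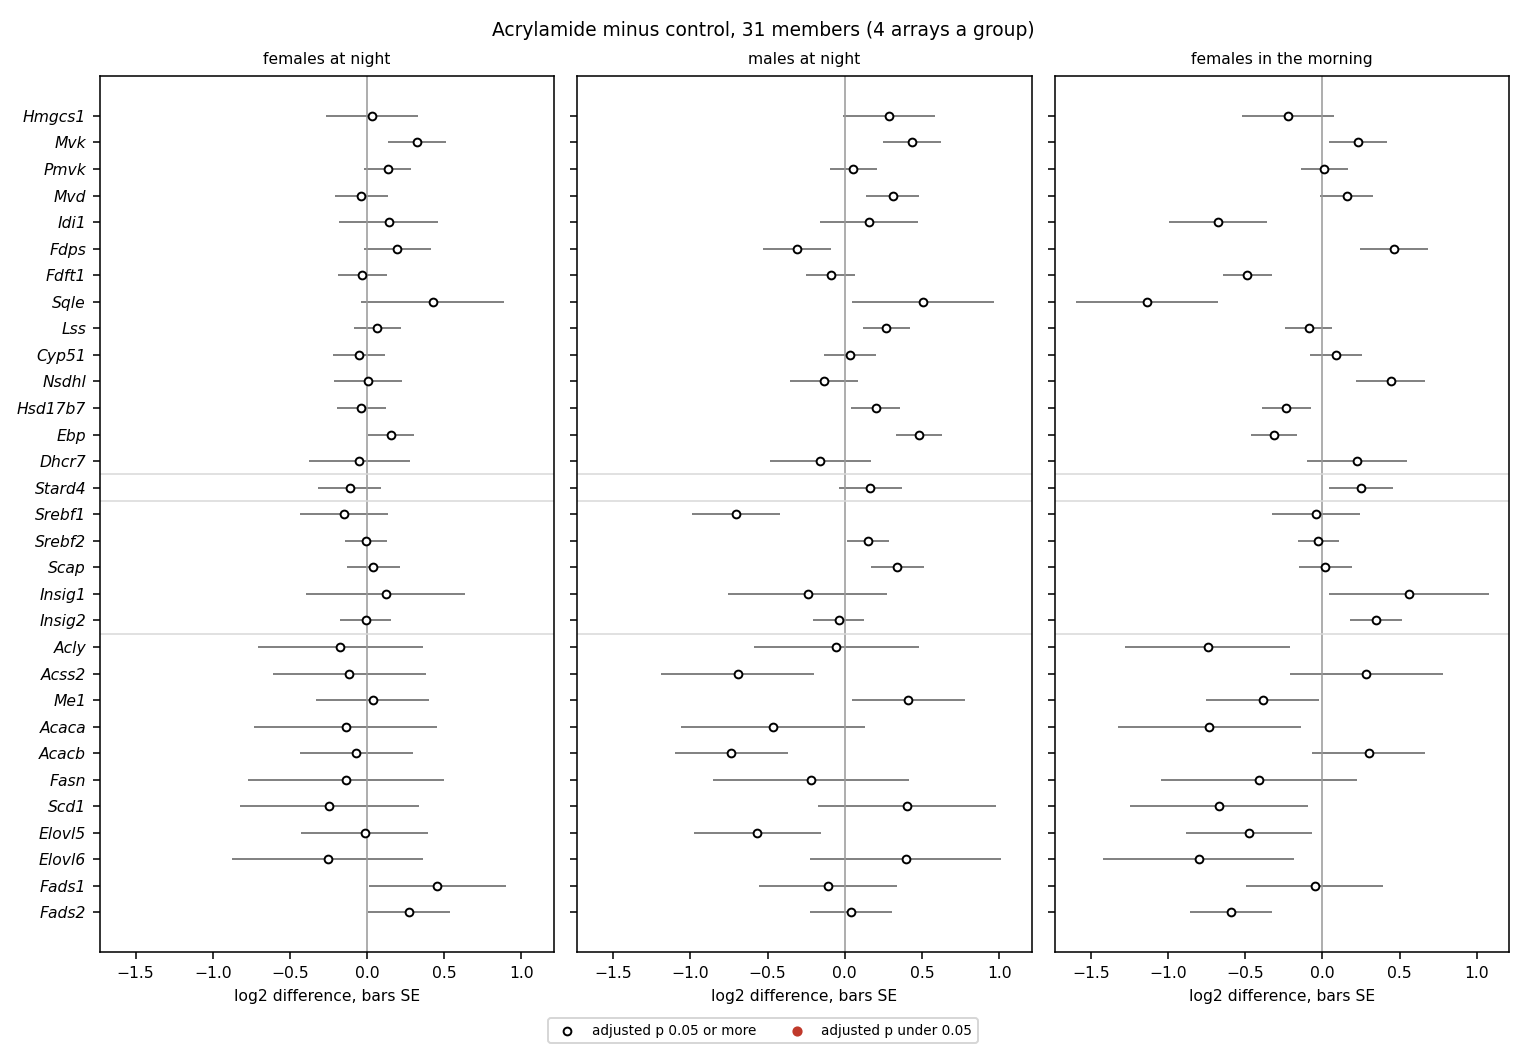
Differences between acrylamide and control pups on the log2 scale for the 31 members in night females, night males and morning females, with the model's SE as bars and roles separated by grey lines. Open points did not pass adjusted p under 0.05; all points are open, and the fatty acid enzymes in the lower part have wider bars than most sterol enzymes.

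Sqle encodes squalene epoxidase, which adds the first oxygen on the way to the sterol ring. At night its levels were 3.42, 3.23, 3.40 and 3.09 in acrylamide females against 2.74, 2.89, 2.81 and 3.00 in control females, and these groups did not overlap. It was the only member without overlap in that comparison, where 5.45% of all genes had none. The fitted difference was 0.43 log2 (SE 0.46, adjusted p = 0.9999). In males at night Sqle stood at 3.13, 3.51, 3.39 and 3.69 with acrylamide and 2.76, 2.93, 3.24 and 2.77 without, a difference of 0.51 (SE 0.46, adjusted p = 0.606). In the morning the acrylamide females had -0.77, 2.39, 1.84 and 2.92 against 2.47, 2.81, 2.94 and 2.71 in controls. The lowest of these is the array low in thyroid markers. The difference was -1.14 (SE 0.46, adjusted p = 0.149) with that array and -0.35 without it, and it reached -1.58 with an adjusted p of 0.0316 when replicate 4 of the acrylamide females was left out. Within the slides the morning difference was -0.62 on slide 3 (2 acrylamide and 3 control arrays) and -1.64 on slide 4 (2 and 1). The probe lies at chr7:96111693-96111752 on rn4, plus strand.

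Mvk, mevalonate kinase, had the smallest p among the members over the mean of the 3 strata. Its levels at night were -0.99, -0.62, -0.67 and -1.14 in acrylamide females against -1.12, -1.17, -1.30 and -1.11 in control females. In males at night they were -0.84, -0.55, -0.48 and -0.34 with acrylamide and -1.11, -0.77, -1.17 and -0.89 without. The morning values were -2.09, -1.15, -1.53 and -1.01 in acrylamide females and -1.78, -1.50, -1.63 and -1.77 in controls. The mean difference over the 3 strata was 0.33 log2 (SE 0.11), and the groups overlapped in each stratum. Adjusted over all genes it did not pass limma's test (adjusted p = 0.563). In that comparison 0 of 31 members were called, where 0.00493% of all genes were, and 2 members and 1354 genes had an unadjusted p under 0.05.

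Ebp, a sterol isomerase late in the pathway, was the only member whose arrays did not overlap in males at night, where 4.46% of all genes had no overlap. Its levels were 2.39, 2.92, 2.54 and 2.92 in acrylamide males and 2.16, 2.32, 2.30 and 2.07 in control males. The difference was 0.48 (SE 0.15, adjusted p = 0.353), and it was 0.25 with the white fat and muscle marker means as covariates. In the morning Ebp had 1.25, 1.86, 1.84 and 1.54 in acrylamide females against 1.79, 1.98, 1.90 and 2.07 in controls, a difference of -0.31 (adjusted p = 0.203), or -0.19 without the array low in thyroid markers. At night Ebp had 2.54, 2.28, 2.19 and 2.32 in acrylamide females and 2.11, 2.20, 2.15 and 2.24 in control females.

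Idi1 and Fdft1 were also among the members with an unadjusted p under 0.05 in the morning. Idi1, isopentenyl diphosphate isomerase, stood at 0.15, 1.88, 1.28 and 0.52 in acrylamide females against 1.42, 2.03, 1.65 and 1.45 in controls (difference -0.68, SE 0.32, adjusted p = 0.202). The lowest value is again from the array low in thyroid markers, and the difference without it was -0.41. Fdft1, squalene synthase, had 3.43, 3.75, 4.07 and 3.41 against 3.85, 4.43, 4.19 and 4.15 (difference -0.49, SE 0.16, adjusted p = 0.0885), the smallest adjusted p of any member with acrylamide. Without replicate 3 of the acrylamide females the Fdft1 difference was -0.62 with an adjusted p of 0.0221. Morning groups overlapped for all 31 members, where 8.58% of all genes had no overlap. The remaining sterol enzymes not described here (Hmgcs1, Pmvk, Mvd, Fdps, Lss, Cyp51, Nsdhl, Hsd17b7 and Dhcr7) and Stard4 had no adjusted p under 0.05 with acrylamide in any stratum. The 2 probes of Fdps had opposite signs in males at night (-0.31 for the one used and 0.39 for the other), and those of Stard4 and Insig2 had opposite signs in females at night.

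**Figure D2:**
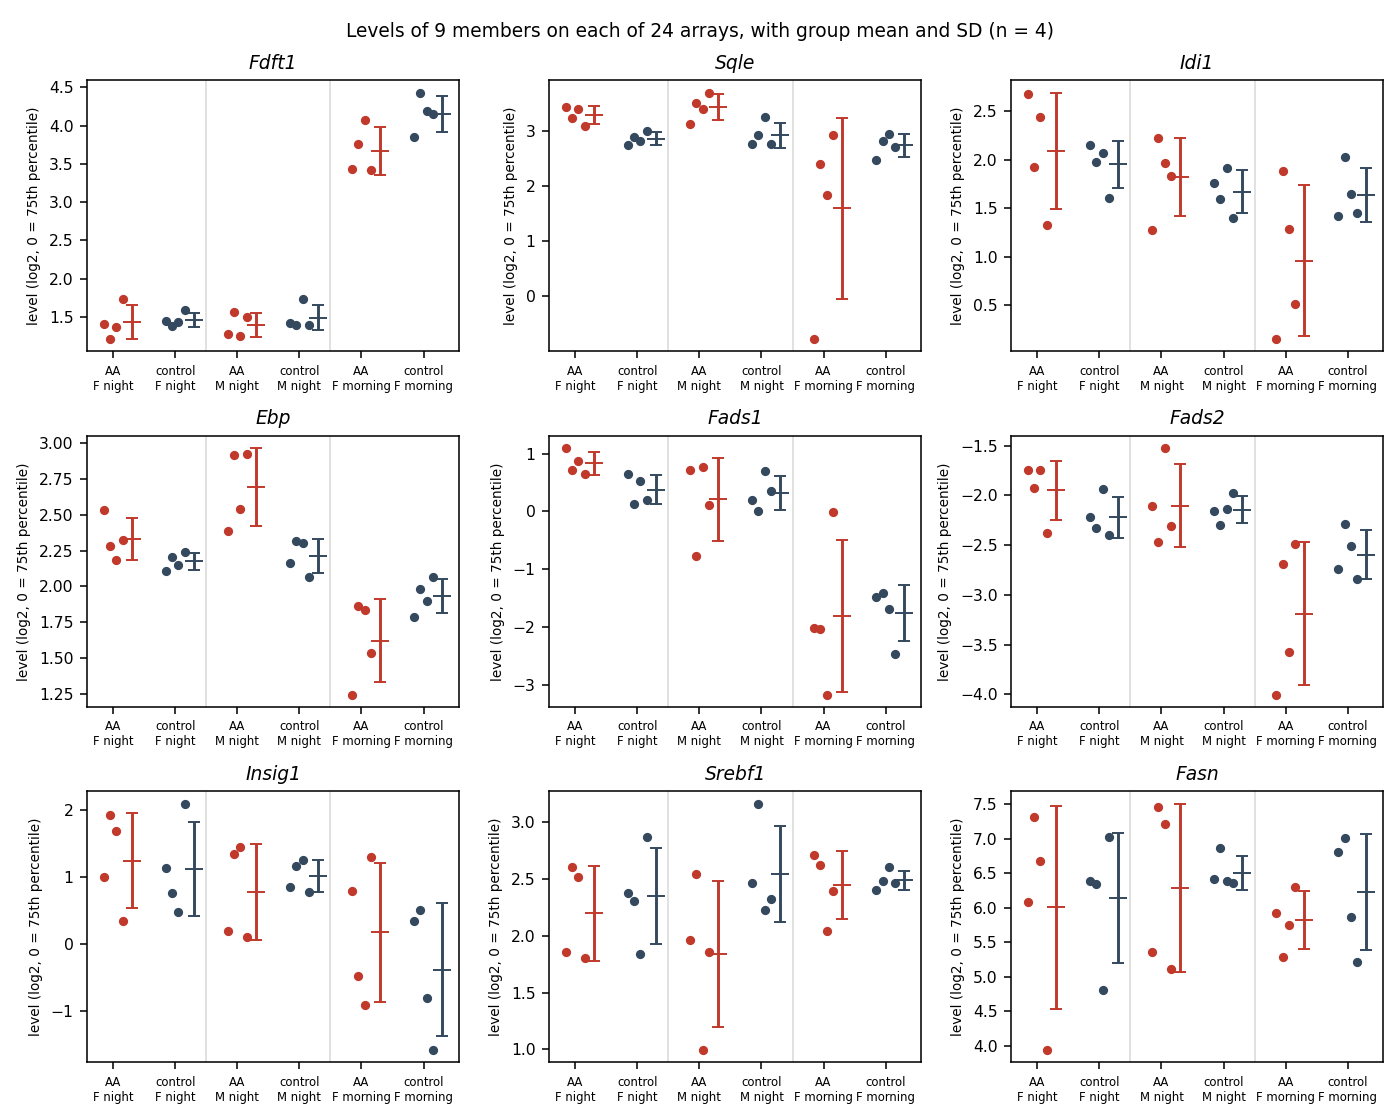
Levels of 9 members on each of the 24 arrays (log2, 0 is the array's 75th percentile), with acrylamide in red left of its control in dark blue within each stratum (F, female; M, male), and group means with SD as bars (n = 4). Sqle and Idi1 have their lowest value on replicate 1 of the acrylamide females in the morning, Fdft1 is higher on all 8 morning arrays than on any night array, and Fads1 is lower on 7 of them than on any night array.

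Among the regulators, Srebf1 gave the difference of largest size with acrylamide. Its probe carries the gene's name only in the newer array annotation, and a transcript identifier in the older. In males at night its levels were 1.96, 2.54, 0.99 and 1.85 with acrylamide and 2.46, 3.16, 2.23 and 2.32 without (difference -0.71, SE 0.285, adjusted p = 0.353). The groups overlapped. The difference was -0.42 without acrylamide replicate 3, the low one, and -0.94 without acrylamide replicate 2, the array low in muscle markers. In females at night Srebf1 had 1.86, 2.60, 2.51 and 1.81 with acrylamide against 2.37, 2.31, 1.84 and 2.87 without (difference -0.15, SE 0.285, adjusted p = 0.9999), and its morning difference was -0.04. These female groups overlapped as well. Scap, the escort protein, had 0.47, 1.32, 0.66 and 1.26 in acrylamide males against 0.47, 0.78, 0.77 and 0.33 in control males (difference 0.34, adjusted p = 0.377). It was 0.21 without replicate 2, the array low in muscle markers, and 0.04 with the fat and muscle marker means as covariates. Insig1 had 0.80, -0.47, -0.90 and 1.29 in acrylamide females in the morning against 0.35, 0.51, -0.80 and -1.58 in controls (difference 0.56, SE 0.52, adjusted p = 0.515), and 0.35 without the array low in thyroid markers. On slide 3 the Insig1 difference was -0.70 and on slide 4 it was 2.62, so the 2 slides have opposite signs. At night Insig1 had 1.00, 1.92, 1.69 and 0.35 in acrylamide females against 1.14, 0.77, 0.48 and 2.09 in controls (difference 0.12, SE 0.52, adjusted p = 0.9999), with wide overlap. Insig2 had -1.22, -2.22, -2.16 and -1.65 in acrylamide females in the morning against -2.03, -2.18, -2.04 and -2.38 in controls (difference 0.35, SE 0.17, adjusted p = 0.207), and 0.15 without the array low in thyroid markers. Slide 3 gave -0.10 and slide 4 gave 0.95 for Insig2. Srebf2 differed by -0.03 to 0.15 across the strata.

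The fatty acid enzymes spread widely within every comparison. Acly, ATP citrate lyase, which supplies cytosolic acetyl-CoA, stood at 4.52, 4.34, 4.87 and 4.96 in acrylamide females in the morning against 5.98, 6.24, 5.04 and 4.41 in controls (difference -0.74, SE 0.54, adjusted p = 0.396). Elovl6, which elongates palmitate, stood at 2.51, 1.42, 2.42 and 2.92 against 3.80, 4.18, 2.69 and 1.81 in the same groups (difference -0.80, SE 0.62, adjusted p = 0.427). In each case controls 1 and 2 were higher than every acrylamide array and control 4 was low. With slide as a term the differences were -0.62 and -0.73; within slides they were -1.15 and -1.64 on slide 3 but 0.33 and 0.90 on slide 4.

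Acacb, the acetyl-CoA carboxylase at the mitochondrial surface, had -3.29, -4.05, -2.65 and -4.55 in acrylamide males at night against -3.12, -2.74, -3.05 and -2.68 in control males (difference -0.73, SE 0.37, adjusted p = 0.375). Acss2, acetyl-CoA synthetase, had 0.33, 0.55, 1.16 and -1.12 against 1.02, 1.08, 0.92 and 0.68 in the same groups (difference -0.69, SE 0.50, adjusted p = 0.508). The acrylamide arrays lay on both sides of the controls. With the fat and muscle marker means as covariates the differences were -0.08 for Acacb and -0.22 for Acss2, and without acrylamide replicate 4 they were -0.43 and -0.24. Fads1 and Fads2, the delta-5 and delta-6 desaturases, showed the largest fatty acid differences in females at night, 0.46 (SE 0.45) and 0.27 (SE 0.27), each with an adjusted p of 0.9999. Fads1 had 1.09, 0.71, 0.87 and 0.66 in those acrylamide females and 0.66, 0.12, 0.53 and 0.21 in controls. Fasn, fatty acid synthase, had 6.09, 7.32, 6.68 and 3.94 in acrylamide females at night against 6.39, 6.34, 4.80 and 7.02 in controls. Its lowest and its highest night value in females are both from the acrylamide group.

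Setting the branches against each other, each gene was centred on its mean over all arrays and the mean of the 11 fatty acid enzymes was subtracted from that of the 14 sterol enzymes on each array. The acrylamide minus control difference in this branch measure was 0.13 in night females, 0.29 in night males and 0.28 in morning females. Its parts differed between strata. In night females the sterol mean was 0.03 against -0.06 in controls, and the fatty acid mean 0.02 against 0.06. In night males these were 0.17 against 0.03 and 0.10 against 0.25. In morning females both were lower, -0.145 against -0.03 and -0.41 against -0.02. In females at night the 4 acrylamide values were 0.20, -0.70, -0.30 and 0.85 against -0.16, -0.21, 0.44 and -0.52 in controls, and leaving out single arrays moved the difference between -0.15 (without acrylamide replicate 4) and 0.36 (without acrylamide replicate 2). In males at night the values were 0.23, -0.10, -0.55 and 0.71 against -0.19, -0.29, -0.15 and -0.25, with a range of 0.08 (without acrylamide replicate 4) to 0.50 (without acrylamide replicate 3). In the morning they were -0.01, 0.76, 0.50 and -0.20 against -0.37, -0.43, 0.21 and 0.52, with a range of 0.11 (without acrylamide replicate 2) to 0.46 (without control replicate 4). The groups overlapped in each stratum, so the sterol and fatty acid branches were not separated by exposure beyond the spread between arrays; the measure is a description with no test. Between night and morning in control females the branch measure differed by -0.10, and the groups overlapped. Leaving out single arrays moved this between -0.28 (without night replicate 3) and 0.08 (without morning replicate 4).

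The exposure effect was not shown to differ between the sexes or the times for any member. Males minus females at night gave 0 of 31 members called, where 0% of all genes were, with differences from -0.67 (Acacb) to 0.65 (Elovl6); the Elovl6 value was 0.21 without the array low in muscle markers. Night minus morning in females likewise gave 0 of 31 members against 0% of all genes, with Sqle at 1.56 (SE 0.65, adjusted p = 0.26), Fads2 at 0.86 (SE 0.38, adjusted p = 0.268) and Ebp at 0.47 (SE 0.21, adjusted p = 0.273). Without the array low in thyroid markers these were 0.77, 0.59 and 0.34. For these effects 0 members and 446 genes (by sex), and 3 members and 3310 genes (by time), had an unadjusted p under 0.05. In control pups at night, males against females, 0 of 31 members were called, where 0.00986% of all genes were; 0 members and 332 genes had an unadjusted p under 0.05. The differences ran from -0.29 to 0.37, and sex is confounded with slide.

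Collection time gave the only calls among the members. In acrylamide females 8 of 31 members differed between night and morning, 7 higher and 1 lower at night, where 56.2% of all genes were called. In control females 7 of 31 differed, 6 higher and 1 lower at night, where 48.6% of all genes were called. The share among the members was thus below that of all genes in both. Night and morning arrays did not overlap for 6 members in acrylamide females, where 45.9% of all genes had no overlap, and for 7 in control females, where 56.9% had none. Night arrays lie on slides 1 and 2 and were read in another scan session than the morning arrays on slides 3 and 4, so time, slide and scan session cannot be told apart in any of these values. Morning arrays also saturated at a lower signal; among the members, Fasn was saturated on 1 and Scd1 on 2 control arrays of that time.

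**Figure D3:**
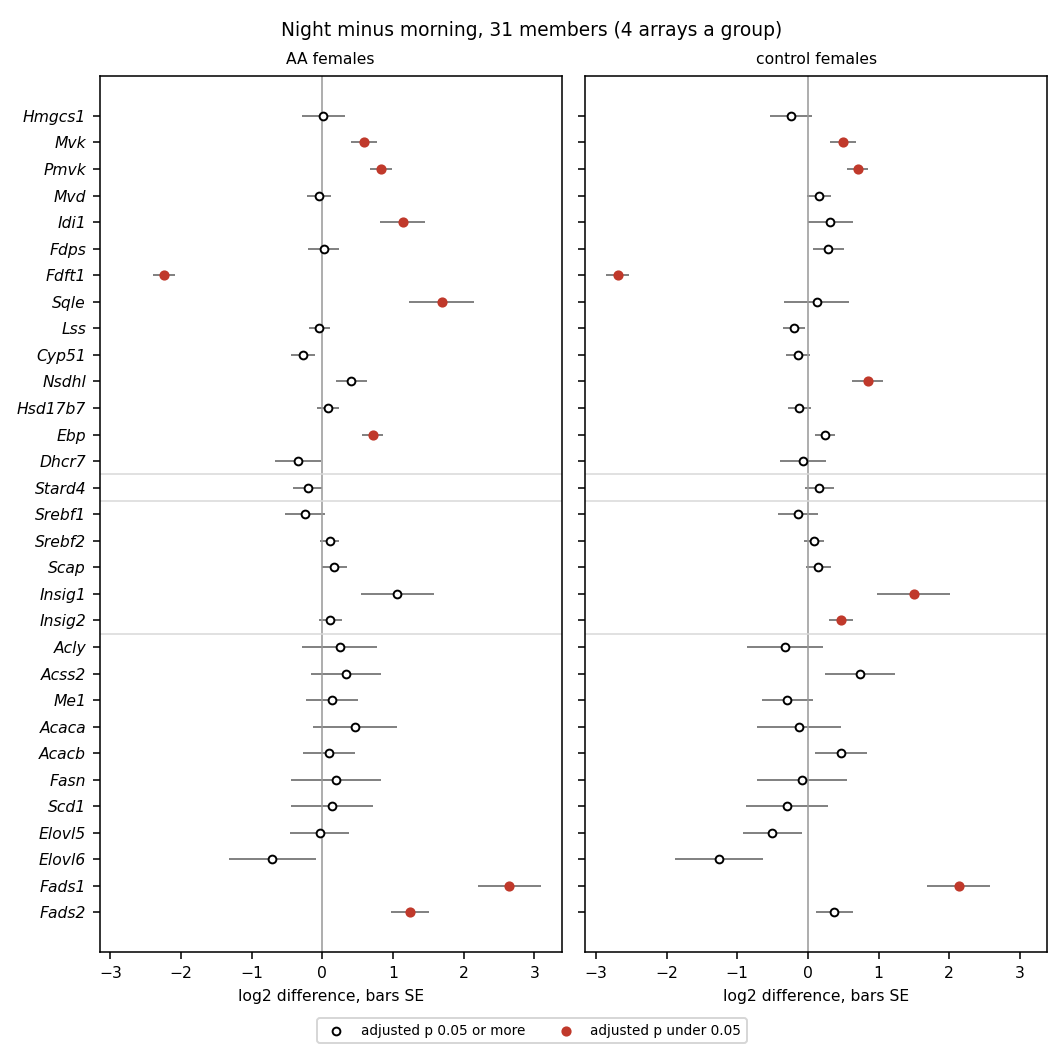
Night minus morning differences on the log2 scale for the 31 members in acrylamide females and control females, with the model's SE as bars and calls at adjusted p under 0.05 filled. Fdft1 lies far below 0 and Fads1 far above 0 in both, while most fatty acid enzymes lie near 0 with wide bars.

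Fdft1, which joins 2 farnesyl diphosphates into squalene at the branch point toward sterols, was lower at night. Its night levels were 1.41, 1.22, 1.36 and 1.74 in acrylamide females and 1.45, 1.38, 1.43 and 1.59 in control females. The corresponding morning levels are those given above, between 3.41 and 4.43. Night and morning arrays did not overlap, with differences of -2.24 (SE 0.16, adjusted p = 3.32e-10) in acrylamide females and -2.69 (SE 0.16, adjusted p = 1.49e-11) in control females. The probe lies at chr15:42425389-42425448 on rn4, minus strand, and it was saturated on none of the arrays.

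Fads1 was higher at night, where its levels were those given above. In the morning they were -2.02, -2.04, -3.16 and -0.01 in acrylamide females and -1.47, -1.41, -1.68 and -2.46 in controls. The difference was 2.64 (SE 0.45, adjusted p = 5.1e-05) in acrylamide females and 2.13 (SE 0.45, adjusted p = 0.000472) in control females, without overlap in either. The probe is at chr1:212684643-212684702 on rn4, plus strand. Fads2, whose probe lies near that of Fads1 on the same chromosome, had -1.75, -1.92, -1.75 and -2.38 at night against -4.00, -2.69, -3.57 and -2.49 in the morning in acrylamide females, a difference of 1.24 (SE 0.27, adjusted p = 0.000575). Without the array low in thyroid markers that difference was 0.97. In control females Fads2 had -2.22, -2.33, -1.94 and -2.40 at night against -2.74, -2.28, -2.51 and -2.84 in the morning, a difference of 0.37 that did not pass (adjusted p = 0.261). The difference between these effects is the exposure by time value given above, which did not pass either.

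Of the early mevalonate enzymes Pmvk and Mvk were higher at night, while Hmgcs1 (0.02 and -0.24) and Mvd (-0.04 and 0.15) did not pass in acrylamide and control females. Pmvk, phosphomevalonate kinase, had 1.40, 1.22, 1.01 and 1.13 at night against 0.65, 0.26, 0.14 and 0.41 in the morning in acrylamide females (difference 0.83, adjusted p = 0.000124). In control females it had 1.09, 0.98, 0.99 and 1.18 at night against 0.52, 0.62, 0.32 and -0.04 in the morning (difference 0.70, adjusted p = 0.000636). Neither pair of groups overlapped. Mvk differed by 0.59 (adjusted p = 0.0116) in acrylamide females and by 0.50 (adjusted p = 0.034) in control females, and without the array low in thyroid markers the difference in acrylamide females was 0.37 and no longer passed (adjusted p = 0.0589). In control females the Mvk call was lost without replicate 1, 2 or 4 at night or replicate 1, 3 or 4 in the morning (adjusted p = 0.0532 to 0.0792). With a term for slide 4 the Mvk call was lost in both (adjusted p = 0.0557 in acrylamide and 0.0609 in control females). That term sets the morning slides 3 and 4 apart and cannot separate time from slide. Sqle, Idi1 and Ebp passed in acrylamide females, with differences of 1.69, 1.14 and 0.71 (adjusted p = 0.00413, 0.00483 and 0.000413), and without that array these were 0.90, 0.87 and 0.59. Idi1 had 2.68, 1.92, 2.44 and 1.33 at night in acrylamide females, overlapping its morning values. With only the groups of the comparison in the fit the calls of Sqle and Idi1 were lost (adjusted p = 0.0761 and 0.0577). That of Idi1 was also lost with the term for slide 4 (0.0582). In control females the same genes differed by 0.13, 0.32 and 0.24 and did not pass.

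In control females Nsdhl, a sterol dehydrogenase, and both Insig genes passed. Nsdhl had -1.29, -1.44, -1.56 and -1.05 at night against -1.90, -1.84, -2.36 and -2.62 in the morning (difference 0.84, SE 0.22, adjusted p = 0.00332). Insig1 had 1.14, 0.77, 0.48 and 2.09 at night against 0.35, 0.51, -0.80 and -1.58 in the morning (difference 1.50, SE 0.52, adjusted p = 0.0206), and its groups overlapped. Insig2 had -1.84, -1.76, -1.56 and -1.60 against -2.03, -2.18, -2.04 and -2.38 (difference 0.47, SE 0.17, adjusted p = 0.0238). In acrylamide females the differences of Nsdhl, Insig1 and Insig2 were 0.41, 1.06 and 0.11 and did not pass. The Insig1 call was lost without replicate 4 of the control females at night (adjusted p = 0.0831) or replicate 3 or 4 of those in the morning (0.0566 and 0.0938). The Insig2 call was lost without replicate 3 or 4 at night (0.0661 and 0.0578) or replicate 4 in the morning (0.0798). Scaling arrays to their median in place of the 75th percentile moves the median of all genes to 0.27 in acrylamide females and 0.28 in control females, beside 0.03 and 0.02 in the values above.

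The arrays of a group differed far more in fatty acid than in most sterol enzymes. The pooled SD within groups was 0.74 log2 at the median of the 11 fatty acid members (range 0.39 to 0.96), 0.24 for the 14 sterol enzymes (0.19 to 0.69) and 0.37 over 20252 genes measured on every array. All 11 fatty acid members and 4 of the 14 sterol enzymes (Hmgcs1, Idi1, Sqle and Dhcr7) were above the all-gene median. Fasn had an SD of 0.96 and Elovl6 of 0.93, larger than 95.8% and 95.2% of genes. Insig1, at 0.77, was the most variable regulator and Srebf2, at 0.17, the least.

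**Figure D4:**
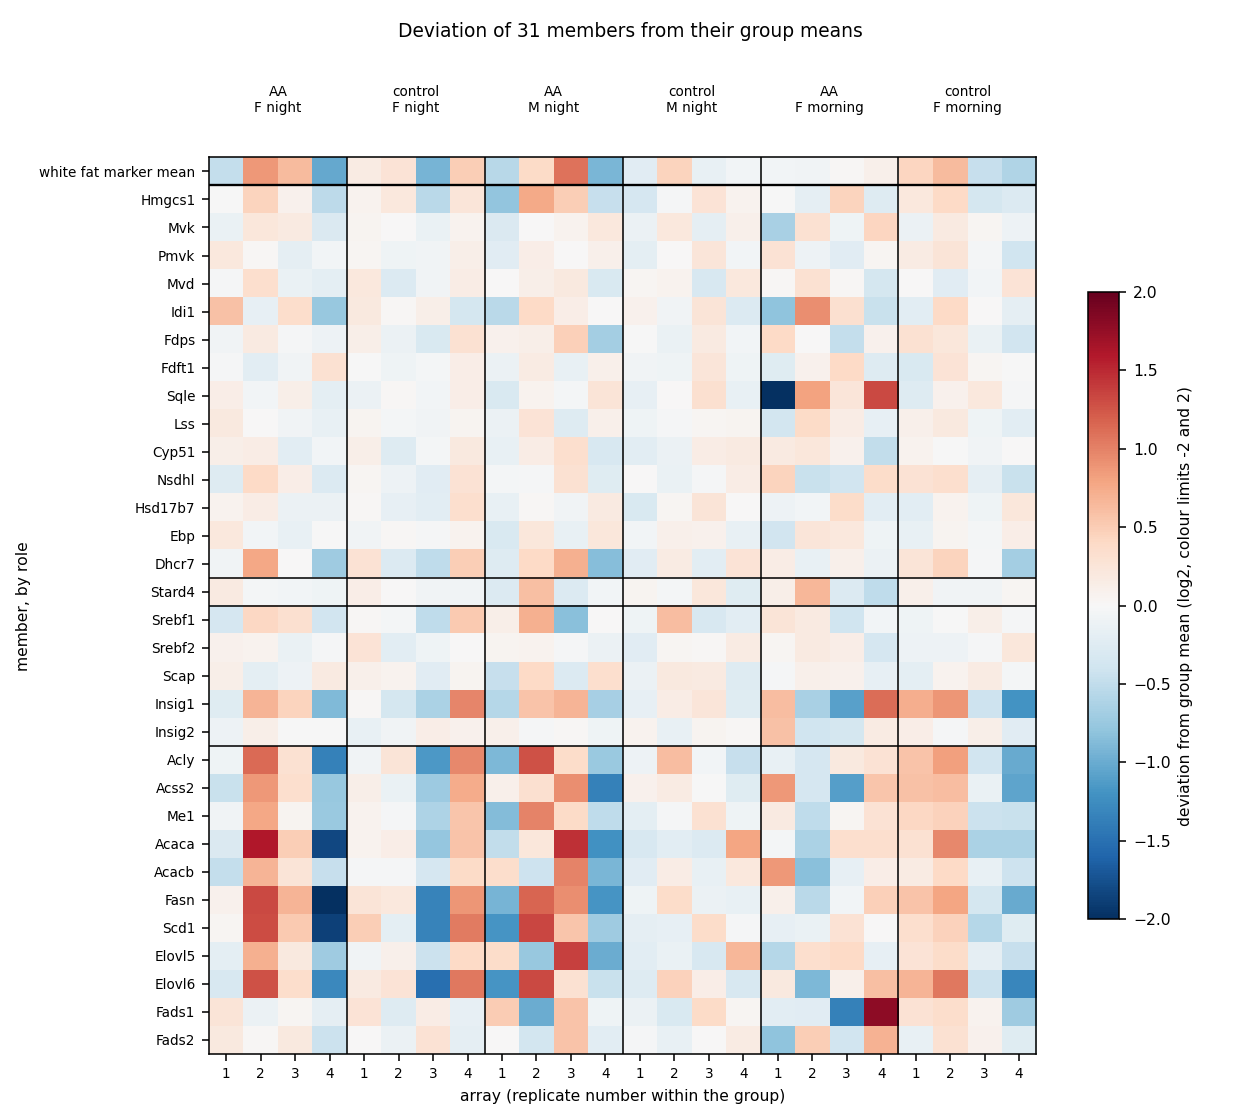
Deviations of the 31 members from their group means (log2, colour limits at -2 and 2) on the 24 arrays, ordered by group with acrylamide left of its control, beneath the mean of the 13 white fat markers treated the same way. Most fatty acid enzymes, Insig1 and Dhcr7 take the colour of the white fat row array by array, while Sqle stands out on replicate 1 of the acrylamide females in the morning.

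This spread went together with transcripts of white fat, and also with those of brown fat, as given below. The white fat markers (13 of 14 listed genes tested, led by Cfd, adipsin, and Fabp4, a fatty acid binding protein) averaged 0.90, 2.25, 2.00 and 0.36 in acrylamide females at night against 1.45, 1.55, 0.35 and 1.78 in controls. In males at night they averaged 0.54, 1.47, 2.18 and 0.18 with acrylamide and 1.33, 2.00, 1.40 and 1.50 without. Morning values were 1.26, 1.24, 1.33 and 1.41 in acrylamide females against 1.89, 2.10, 1.01 and 0.87 in controls. The groups overlapped in each stratum, and 0 of the 13 markers were called with acrylamide in any of the 3. With white fat and muscle means as covariates 0 of 31 members were called with acrylamide in each stratum, as without them. The part of fat in the members' values was otherwise not tested.

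Over the 24 deviations from group means, Fasn followed the white fat mean with Pearson r = 0.921 and Spearman rho = 0.938 (permutation within groups, 100000 resamples, p = 1e-05 each, the smallest they can give; adjusted p = 0.00031 and 0.00062 over 124 relations of 31 members with 4 marker lists). Leaving out the 2 arrays farthest from the median, replicate 4 of the acrylamide females and 3 of the acrylamide males at night, gave r = 0.924, and r was 0.924 within the 16 night arrays and 0.907 within the 8 morning arrays. In this and later values with 2 arrays left out, the group means behind the deviations still included those arrays. Acly had r = 0.873 (rho = 0.908, permutation adjusted p = 0.00201 and 0.000992), Acaca, the cytosolic acetyl-CoA carboxylase, 0.891, and Elovl6 0.835. In all 9 of 11 fatty acid members passed, all but Fads1 (r = 0.0661) and Fads2 (r = 0.226). Among all other genes 2.05% had r over 0.7, against 7 of the 11 fatty acid members.

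Some sterol genes shared the relation. Dhcr7, the last reductase of the pathway, had r = 0.870 (rho = 0.841, permutation adjusted p = 0.00031 and 0.00093) and 0.826 without the same 2 arrays. Hmgcs1, which makes HMG-CoA, had r = 0.793, Nsdhl 0.656 and Fdps, farnesyl diphosphate synthase, 0.641, and these 4 of 14 passed, while Sqle (r = 0.0273) and Fdft1 (r = -0.255) did not. Insig1 was the single regulator of 5 to pass, with r = 0.742 (rho = 0.765, permutation adjusted p = 0.00248 and 0.00135), and it had r = 0.882 within night and 0.704 within morning arrays. Srebf1 itself had r = 0.278 (permutation adjusted p = 0.613). With white fat, 2 of 14 sterol enzymes and 1 of 5 regulators had r over 0.7, beside 2.05% of all other genes. With brown fat markers 8 of 11 fatty acid members passed and 6 had r over 0.7, against 2.015% of all other genes. Acaca (r = 0.938) and Scd1 (0.853) followed brown fat more closely than white fat (0.891 and 0.821). Fasn (0.900) and Acly (0.811) followed it less closely than white fat (0.921 and 0.873). The relation is thus not particular to white fat. Skeletal muscle markers ran the other way for 4 members: Acly (r = -0.674), Me1, malic enzyme (-0.686), Elovl6 (-0.643) and Lss, lanosterol synthase (-0.533), had permutation adjusted p of 0.0149, 0.0418, 0.0138 and 0.0418. By rho (-0.597, -0.547, -0.559 and -0.549) only Lss passed (permutation adjusted p = 0.0454), and without the 2 arrays farthest from the median r was -0.522, -0.479, -0.508 and -0.505. The share of all genes that passed, or that had such a negative r, was not computed for any marker list.

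**Figure D5:**
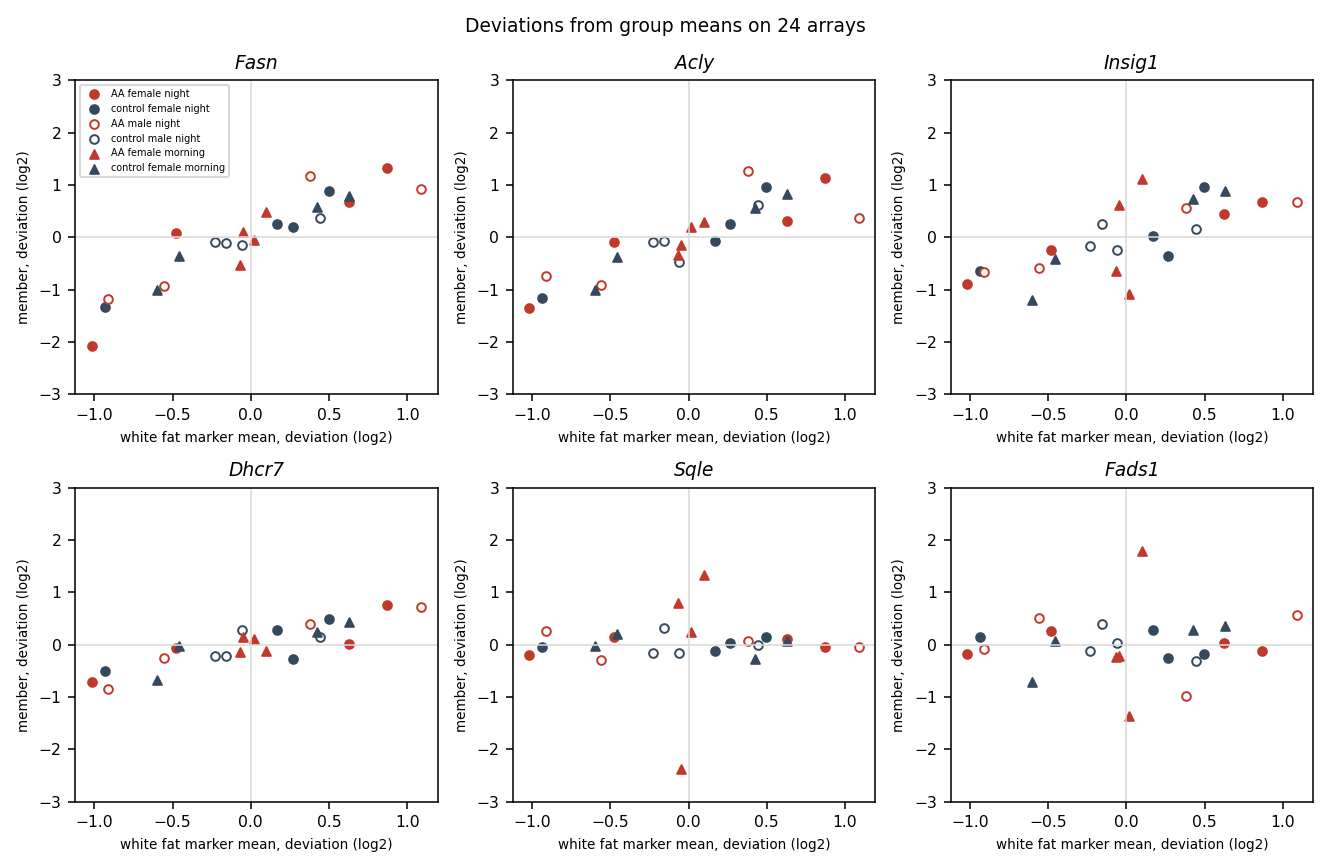
Deviations from group means of 6 members (vertical, log2) against those of the white fat marker mean (horizontal, log2) on 24 arrays; acrylamide in red and control in dark blue, night as circles and morning as triangles, males as open symbols. Fasn, Acly, Insig1 and Dhcr7 rise with the marker mean, and Sqle and Fads1 do not.

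RefSeq windows on GRCr8, with 250 bases before and 50 after each start, were found for 23 of the 31 members, 24 windows in all; Pmvk, Fdft1, Sqle, Stard4, Acaca, Fasn, Scd1 and Elovl6 were not matched. Each window was searched on both strands for CCAAT (the NF-Y box, ATTGG on the other strand), GGGCGG (the GC box, CCGCCC on the other strand), CACGTG (the E box) and TCACNCCAC (a sterol regulatory element core), and hits of different motifs did not overlap in member windows. The stretches before the start site of Acly, Acss2, Insig1 and Nsdhl, which passed the relation with the white fat markers, and of Fads1, which did not, are given 5′ to 3′ on the gene's strand, with the NF-Y, GC and E boxes in capitals. They are at chr10:85963632-85963781 (Acly, minus strand), chr3:164464553-164464702 (Acss2, plus), chr4:8057770-8058019 (Insig1, minus), chrX:155817110-155817359 (Nsdhl, plus) and chr1:216252442-216252691 (Fads1, plus).
Acly: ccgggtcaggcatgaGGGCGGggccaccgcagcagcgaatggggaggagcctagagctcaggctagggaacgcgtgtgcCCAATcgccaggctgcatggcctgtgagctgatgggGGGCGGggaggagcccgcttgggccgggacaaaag
Acss2: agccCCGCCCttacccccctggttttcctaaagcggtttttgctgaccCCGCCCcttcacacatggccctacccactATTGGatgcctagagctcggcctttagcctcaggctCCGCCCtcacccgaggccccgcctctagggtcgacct
Insig1: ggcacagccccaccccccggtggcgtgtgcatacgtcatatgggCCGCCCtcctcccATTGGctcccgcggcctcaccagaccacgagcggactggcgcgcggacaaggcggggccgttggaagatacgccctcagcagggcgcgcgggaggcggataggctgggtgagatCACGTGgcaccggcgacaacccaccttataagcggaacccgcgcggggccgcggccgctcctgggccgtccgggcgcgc
Nsdhl: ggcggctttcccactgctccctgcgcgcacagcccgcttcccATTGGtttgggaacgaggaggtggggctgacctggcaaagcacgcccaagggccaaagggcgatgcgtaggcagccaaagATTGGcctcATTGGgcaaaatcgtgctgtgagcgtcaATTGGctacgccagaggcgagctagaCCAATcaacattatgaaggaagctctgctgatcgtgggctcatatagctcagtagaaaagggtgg
Fads1: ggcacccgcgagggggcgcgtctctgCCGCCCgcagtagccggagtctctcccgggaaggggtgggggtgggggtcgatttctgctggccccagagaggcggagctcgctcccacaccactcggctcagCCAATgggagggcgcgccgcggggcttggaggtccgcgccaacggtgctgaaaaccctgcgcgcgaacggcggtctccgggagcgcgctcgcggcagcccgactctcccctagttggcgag

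The Nsdhl stretch holds 5 NF-Y boxes and no GC or E box, that of Acss2 holds 1 NF-Y and 3 GC boxes, that of Acly 1 and 2, and that of Insig1 has 1 of each of the 3 motifs. The Fads1 stretch has 1 NF-Y and 1 GC box, so these letters do not set it apart from the others. Over the whole windows, NF-Y boxes were in 79.2% of member windows and 37.5% of all 33469 windows of the table, and GC boxes in 79.2% and 33.1%. The E box was in 12.5% of member windows against 6.42% of all, and the sterol regulatory element core in 0 of 24 against 1.12%. These are counts of letters, not of bound sites.

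Among the sterol enzymes, Sqle followed the thyroid follicular markers most closely by r. Over the 24 deviations its r with the mean of the 13 markers was 0.969 (rho = 0.791, permutation adjusted p = 0.00207 and 0.0057). Without the 2 arrays farthest from the median, replicates 1 and 4 of the acrylamide females in the morning, r was 0.796. That value is not free of replicate 1, which still enters the group mean from which the deviations of the other replicates were taken. The r of Sqle was 0.690 within the 16 night arrays and 0.981 within the 8 morning arrays, where the array low in thyroid markers lies. Mvk, the other member to pass by r, had 0.735 (permutation adjusted p = 0.0363) but rho = 0.451, which did not pass (permutation adjusted p = 0.173). Its r was 0.325 without those 2 arrays, so its relation rests on them. Lss (rho = 0.648, permutation adjusted p = 0.0225) and Ebp (rho = 0.603, permutation adjusted p = 0.0472) passed by rho but not by r (0.546 and 0.567), with r = 0.754 and 0.796 within the night arrays. Among all other genes 4.07% had r over 0.7 with these markers, beside 2 of 14 sterol enzymes (Sqle and Mvk), 0 of 5 regulators and 0 of 11 fatty acid members.

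Other genes of the pathways, from lists of neighbouring steps, were put through the same comparisons. With acrylamide 0 of 15 other sterol genes tested were called at night in either sex, where 0% of all genes were. In the morning 1 of 15 was called, where 2.10% of all genes were. This was Dhdds, a subunit of the enzyme that makes dolichol from farnesyl diphosphate (-0.55, SE 0.14, limma adjusted p = 0.04995). Without the array low in thyroid markers the calls over all genes in that comparison fell from 427 to 21. For the genes of these lists no values without that array are given. Of 20 other fatty acid genes and 8 genes of sterol export and its receptors, 0 were called with acrylamide in any stratum. At night the largest differences were 0.39 for Abcg5, a sterol exporter, and -0.34 for Mlxipl, the factor ChREBP, in females at night (adjusted p = 0.9999 each), and -1.07 for Mcat and -0.98 for Soat1, which esterifies cholesterol, in males at night (adjusted p = 0.398 and 0.371). In the morning larger differences did not pass, among them -2.10 for Abcg5 (adjusted p = 0.0652), -1.29 for the elongase Elovl2 (0.0883) and -1.24 for Tm7sf2, a sterol reductase (0.0655). Between night and morning, 6 of 15 other sterol genes were higher and 1 lower at night in acrylamide females, and 2 higher and 1 lower in control females. Of the 20 other fatty acid genes 9 were higher and 1 lower at night in acrylamide females, and 2 were higher in control females. Of the 8 export genes 7 were higher at night in acrylamide females and 4 in control females. These shares stand beside 56.2% and 48.6% of all genes called. In acrylamide females the export genes lay above that share, unlike the members, and the other sterol and fatty acid genes below it. In acrylamide females the largest were 2.67 for Abcg5 (adjusted p = 0.000899), 2.00 and 1.70 for the elongases Elovl7 and Elovl2 (0.000831 and 0.00186) and 1.47 for Mcat, which loads malonyl groups in mitochondria (0.0387). In control females they were -1.94 for Soat1 (adjusted p = 0.00215), 1.82 for Mcat (0.014), 1.17 for Lpcat3, a phospholipid acyltransferase (0.00282), and 1.13 for Hsd17b12, a reductase of fatty acid elongation (0.0102).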

How the data were processed

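RNA from 24 thyroid samples was labelled with 1 dye (Cy3), per the labels' protocols. The authors deposited scanner output with intensity values per spot, background-corrected by Agilent Feature Extraction 10.1.1.1, per the file headers. The series' value table equals log2 of the deposited processed signal minus a constant per array, tested against the scanner values; how its constant was chosen is not given in the sources used here. Outlier-flagged spots were left out, spots of a probe averaged, log2 taken and each array's 75th percentile subtracted. Probes well above background on 3 of 4 arrays in any group were kept (23416 of 30367), and the probe of highest mean stood for each of 20292 gene names of the array's newer annotation. limma 3.58.1 (R 4.3.3) was fitted to 6 group means over 24 arrays with 18 residual degrees of freedom, 9 two-sided contrasts and Benjamini-Hochberg adjustment over all genes at 0.05, and was tested on simulated data. No sequencing depth applies to arrays; their number limits the precision.

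The members and lists were chosen with earlier results of these data known. Values on every array of the comparison are given for members past the threshold and for the 2 of largest difference per role with acrylamide. Of the other lists at most 4 genes per comparison are named; Abcg5, Elovl2 and Tm7sf2 in the morning were added after their values were seen. Of each marker list the 2 genes of highest mean level are named, except 1 that is not reported here. Fasn, Fdft1 in the morning, and the members used for promoters or relations were named beyond that rule, after their values were seen. Relations with marker lists (Python 3.11.15, numpy 2.4.6) were added after the data were seen. Promoter sequences are from RefSeq (GRCr8); probe positions are on rn4, per the file headers, and the exon or UTR at a probe was not looked up. Alternatives covered background, normalization, filter, probe choice, value table, samples in the fit, slide (a term for slide 4), array weights, trend, replicate block, tissue markers and each array left out. Morning males and plasma hormones were not analysed here.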

Additional observations from a re-analysis of the deposited data

Results flagged for a closer look

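In 5 of 186 groups of 4 arrays 1 member's level lay far from the other 3, by Dixon's test at its 95% critical value; chance flags about 5% of groups. Fdft1 was 1.73 on replicate 3 of the control males at night and 1.40 to 1.42 on the others. Fasn was 6.87 on replicate 2 of the same group and 6.35 to 6.41 on the others, and Acaca was 0.36 on its replicate 4 and -0.75 to -0.63 on the others. Stard4 was -0.83 on replicate 1 of the acrylamide females at night and -1.09 to -1.05 on the others. Scap was 0.35 on replicate 3 of the control females at night and 0.63 to 0.68 on the others.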

How the results depend on the processing

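Over 33 pairs of a named member and a comparison, 1225 of 1254 values under the alternatives kept their direction and side of the threshold, 23 lost the threshold, 1 gained it and 5 changed sign. The number of members called between night and morning in acrylamide females was 8; it fell to 5 with only the groups of the comparison in the fit, ranged from 8 to 10 with single arrays left out, and was 5 to 10 over the other alternatives. In control females it was 7, from 4 to 7 with single arrays left out (4 without replicate 4 of the control females at night) and 6 to 10 otherwise. In females in the morning the count with acrylamide was 0 to 1 with single arrays left out: 1 without replicate 3 (Fdft1) and 1 without replicate 4 (Sqle) of the acrylamide females. The small Insig1 difference in females at night, 0.12, was -0.0864 with the fat and muscle covariates, -0.0925 without control replicate 3, -0.107 without acrylamide replicate 2 and -0.0289 without acrylamide replicate 3, and ranged from -0.11 to 0.44 with single arrays left out. That of Srebf1 ranged from -0.32 to 0.02 and was 0.0225 without control replicate 4. The cause was not tested. With normexp, Mvk, Nsdhl and Insig2 differed by 0.24, 0.32 and 0.19 in control females and were no longer called. Over all genes the 427 calls in females in the morning ranged from 3 (without control replicate 2) to 2131 (without acrylamide replicate 3) and were 0 with only the groups of the comparison, 4 with array weights, 12 with median scaling and with the value table, 98 without a filter, 215 with normexp, 960 with quantile normalization, 86 with slide as a term, 1255 with the covariates and 20 without the 2 arrays that stand apart, an alternative chosen after seeing the data. The mean of 3 strata gave 0 to 28 and the time interaction 0 to 290. Same-numbered arrays correlated between -0.228 and 0.355 in their deviations, which gave no clear sign of pairing by number but cannot exclude it. With the replicate block 7 and 8 members were called between night and morning in control and acrylamide females and 0 with acrylamide. Scaling to the median moves the median of all genes to 0.18 in males at night.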
